A study of Mus musculus with 24 samples.

Results

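The 6 genes described here are those of the mouse DNA methylation machinery proper: the methyltransferases Dnmt1, Dnmt3a and Dnmt3b, the catalytically inactive cofactor Dnmt3l, and the ubiquitin ligases Uhrf1 and Uhrf2. They were chosen by symbol, each matched 1 row, and together they are 6 of the 51912 genes in the RNA-seq count tables. The series holds 24 samples, of which 9 are RNA-seq libraries and are used here. They comprise 3 libraries of wild-type embryonic stem cells (ESCs; strain C57BL/6 X 129S5), 3 of neuronal progenitors (NPs; same strain, wild type) and 3 of ESCs lacking all TET dioxygenases (TETTKO, a TET1/2/3 triple knockout; strain C57BL/6 X 129/sv). Per the study's methods, the ESCs were the TC-1 line grown with LIF on gelatin, and NPs were made from cellular aggregates treated with retinoic acid. ESC and NP libraries held 20519702 to 23976914 counted reads each, and TETTKO libraries 80704741 to 93210102. Genotype and parental strain cannot be told apart in TETTKO. Thinning the TETTKO counts to the median ESC depth moved the log2 fold change of the 6 genes by at most 0.023 and left 422 genes at adjusted p under 0.001 against 456.

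DNA methylation at CpG sites is copied at each replication by DNMT1, which UHRF1 recruits by binding hemimethylated CpGs and ubiquitinating histone H3. UHRF2 is a paralogue of UHRF1 that binds hydroxymethylated DNA and does not replace UHRF1 in maintenance. New methylation is placed by DNMT3A and DNMT3B, which DNMT3L stimulates in germ cells and early embryonic cells. TET proteins oxidise methylcytosine, so that these enzymes act on opposite sides of the same mark.

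In NPs, 4 of the 6 genes changed relative to ESCs at adjusted p under 0.001. Dnmt3l, Dnmt3b and Uhrf1 were lower and Uhrf2 was higher, whereas Dnmt1 and Dnmt3a did not pass the test. Of all genes tested in NPs, 16.2% were lower and 17.8% higher. In TETTKO, none of the 6 passed the test, where only 1.69% of all genes were higher and 1.58% lower. Dnmt3a, Dnmt3b and Dnmt3l varied widely among the 3 TETTKO libraries.

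The 250 bases before an annotated start site are given for the 4 genes that changed in NPs and for Dnmt1, the partner of Uhrf1. Sequences are RefSeq promoter windows of build GRCm38.p6, 5′ to 3′ on the strand of the gene, and where a gene has several windows the one with most CpG dinucleotides is shown. All 6 genes had at least 1 window, 13 in all. Capitals mark the E2F forms TTTGGCGC, TTTCGCGC and TTTCCCGC, the GC box GGGCGG and the CCAAT box, each searched on both strands and in part overlapping.
Dnmt1, chr9:20952624-20952873, minus strand: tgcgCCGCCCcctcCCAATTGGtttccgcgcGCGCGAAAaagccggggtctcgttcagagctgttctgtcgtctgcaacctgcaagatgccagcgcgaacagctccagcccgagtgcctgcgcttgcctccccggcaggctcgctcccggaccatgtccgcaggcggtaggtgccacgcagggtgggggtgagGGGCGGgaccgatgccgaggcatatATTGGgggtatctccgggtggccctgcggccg
Uhrf1, chr17:56304063-56304312, plus strand: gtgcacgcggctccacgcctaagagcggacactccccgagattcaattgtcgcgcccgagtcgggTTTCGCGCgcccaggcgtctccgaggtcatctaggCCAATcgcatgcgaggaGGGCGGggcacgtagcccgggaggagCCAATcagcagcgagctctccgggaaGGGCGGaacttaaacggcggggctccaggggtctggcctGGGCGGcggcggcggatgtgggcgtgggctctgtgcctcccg
Uhrf2, chr19:30030263-30030512, plus strand: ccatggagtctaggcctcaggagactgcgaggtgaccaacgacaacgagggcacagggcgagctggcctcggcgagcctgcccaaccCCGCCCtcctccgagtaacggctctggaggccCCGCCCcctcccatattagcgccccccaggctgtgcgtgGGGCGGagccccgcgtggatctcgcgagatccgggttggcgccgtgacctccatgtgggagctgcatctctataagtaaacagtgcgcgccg
Dnmt3b, chr2:153649199-153649448, plus strand: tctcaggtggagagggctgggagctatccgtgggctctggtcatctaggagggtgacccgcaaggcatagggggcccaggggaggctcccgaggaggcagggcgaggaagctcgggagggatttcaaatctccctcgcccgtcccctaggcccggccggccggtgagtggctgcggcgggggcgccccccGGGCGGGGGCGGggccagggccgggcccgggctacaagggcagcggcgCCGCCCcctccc
Dnmt3l, chr10:78042037-78042286, plus strand: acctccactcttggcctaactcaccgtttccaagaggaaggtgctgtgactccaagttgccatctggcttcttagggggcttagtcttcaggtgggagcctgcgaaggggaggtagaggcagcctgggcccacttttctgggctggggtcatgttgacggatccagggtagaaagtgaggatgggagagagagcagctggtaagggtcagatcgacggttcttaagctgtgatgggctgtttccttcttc

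Of these 5 stretches, those of Dnmt1 and Uhrf1 held an E2F form. It was TTTCGCGC in both, on the gene's own strand in Uhrf1 and on the other strand in Dnmt1, a form found in 0.323% of the 32851 windows of 300 bases in the table. Any of the 3 forms was found in 1.84% of windows. These shares are over windows of any CpG content. The windows of Dnmt1 and Uhrf1 were picked for CpG, held more CpG dinucleotides than 91.4% of windows, and TTTCGCGC itself contains CpG. The share among windows of like CpG content was not counted. The other windows of Dnmt1 and Uhrf1, among them those at the 5′ end of each gene span, held no E2F form. The printed stretches of Dnmt1 and Uhrf1 also held 3 and 2 CCAAT boxes, found at least once in 37.4% of windows, and 2 and 3 copies of GGGCGG, found in 35.7%. The stretches of Uhrf2 and Dnmt3b each held 3 copies of GGGCGG, and that of Dnmt3l held none of the searched letters. The full window of that Dnmt3l stretch held 1 GGGCGG, and another Dnmt3l window held 2. In CpG content the full window of Dnmt3l stood apart from the other four, with 6 CpG dinucleotides against 28 to 33 and a median of 7 over all windows. A match of letters is a description of the window and not a binding site, and CpG counts were added after the data were seen.

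Levels are given as RPKM, reads per kilobase of exon at equal sequencing depth, scaled by TMM over the 9 libraries. Fold changes come from fits scaled within the groups compared, so they can differ from ratios of these levels. The maintenance methyltransferase Dnmt1 (ENSMUSG00000004099; GRCm38 chr9:20907209-20959888) stood at 75.5, 76.0 and 76.7 RPKM in ESC replicates 1 to 3. In NPs it stood at 72.5, 64.5 and 64.3 RPKM, and in TETTKO at 66.9, 74.0 and 67.5. All 6 differentiated or knockout libraries were below all ESC libraries, but by little. The fitted log2 fold change was -0.20 ± 0.10 (SE, n = 3 per group) in NPs, with a 95% interval from -0.42 to 0.03 and an edgeR adjusted p of 0.115.

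Uhrf1 (ENSMUSG00000001228; chr17:56303321-56323486), the factor that brings DNMT1 to replicated DNA, stood at 106, 112 and 118 RPKM in ESCs. It stood at 59.5, 52.2 and 53.7 RPKM in NPs and at 103, 115 and 84.5 in TETTKO. The NP libraries were all far below the ESC libraries, while TETTKO replicates 1 and 2 were near the ESC range and replicate 3 was below it. In NPs the level was 2.06-fold lower (log2 fold change -1.04 ± 0.10, SE, n = 3 per group, edgeR adjusted p = 4.88e-05).

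Uhrf2 (ENSMUSG00000024817; chr19:30030513-30093722) moved the other way. It stood at 8.66, 9.12 and 9.33 RPKM in ESCs, at 17.1, 15.1 and 16.0 in NPs, and at 10.6, 9.83 and 12.1 in TETTKO. Each NP library was above every other library. The level was 1.76-fold higher in NPs (log2 fold change 0.82 ± 0.10, SE, n = 3 per group, edgeR adjusted p = 1.73e-04). Leaving out any 1 of the 3 ESC replicates raised the edgeR adjusted p of Uhrf2 to between 0.00126 and 0.00243, above the threshold of 0.001, with the log2 fold change between 0.79 and 0.82.

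**Figure D1:**
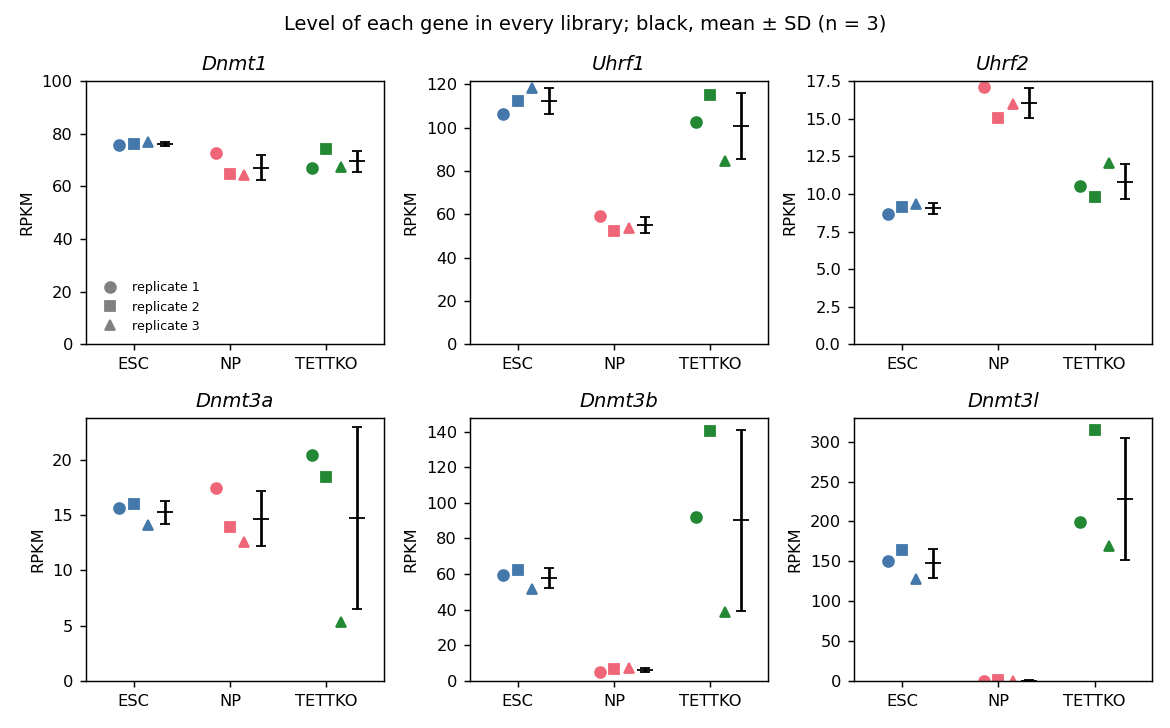
Level of each gene in RPKM (y axes, linear from 0) in the 9 libraries, grouped on the x axis as ESC, NP and TETTKO. Symbols give the replicate number and black bars the mean ± SD (n = 3). Dnmt3l and Dnmt3b are near the axis in NPs, Uhrf1 is lower and Uhrf2 higher there, and TETTKO replicate 3 is low for Dnmt3a and Dnmt3b.

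Among the de novo enzymes, Dnmt3a (ENSMUSG00000020661; chr12:3806007-3914443) stood at 15.6, 16.0 and 14.1 RPKM in ESCs and at 17.4, 14.0 and 12.6 in NPs. The NP range enclosed the ESC range. The log2 fold change was -0.07 ± 0.14 (SE, n = 3 per group), with a 95% interval from -0.38 to 0.24 and an edgeR adjusted p of 0.662. In TETTKO it stood at 20.4, 18.5 and 5.34 RPKM, so that replicates 1 and 2 were above every ESC library and replicate 3 was below every one of them. Its exons share 133 of 16642 bases with the antisense gene Dnmt3aos.

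Dnmt3b (ENSMUSG00000027478; chr2:153649450-153687730), the de novo enzyme of early embryonic cells, stood at 59.3, 62.1 and 51.5 RPKM in ESCs. In NPs it stood at 4.77, 6.62 and 7.10 RPKM, and in TETTKO at 92.0, 140 and 38.7. Every NP library was well below every ESC library, and the TETTKO libraries lay on both sides of the ESC range. The NP level was 9.43-fold lower (log2 fold change -3.24 ± 0.18, SE, n = 3 per group, edgeR adjusted p = 2.69e-06).

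Dnmt3l (ENSMUSG00000000730; chr10:78041947-78063622) showed the largest change of the 6. It stood at 150, 164 and 128 RPKM in ESCs, at 0.204, 0.565 and 0.130 in NPs, and at 200, 314 and 170 in TETTKO. The NP values rest on 13, 41 and 9 counts, against 9387 or more in each ESC library. In these RPKM all 3 TETTKO libraries were above all ESC libraries. That separation depends on the scaling, since with library sizes alone TETTKO replicate 3 was below ESC replicate 2. The fitted NP level was 487-fold lower (log2 fold change -8.93 ± 0.40, SE, n = 3 per group, edgeR adjusted p = 1.07e-06), and only 0.671% of all genes tested had a change of this size or larger. Without NP replicate 2, the library with most Dnmt3l counts, the log2 fold change was -9.80 (edgeR adjusted p = 7.24e-07). Of 9 naive pluripotency markers, 7 were also highest in that NP library, among them Zfp42 at 1.57 RPKM against 0.324 and 0.459 in replicates 1 and 3, while their summed level, mostly Sox2, was 70.9, 65.1 and 57.2 RPKM. Their part in the Dnmt3l counts was not tested. Dnmt3l was below 1 RPKM in every NP library and entered the test through the ESC libraries. Its exons share 67 of 2988 bases with Aire on the other strand, and the counts did not use strand. Aire, the autoimmune regulator, fell from 15.9 to 0.071 RPKM (edgeR adjusted p = 1.04e-06) in the same comparison.

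In a bulk library, fewer cells of a type and less RNA per cell cannot be told apart. The test counts a gene at an adjusted p under 0.001, and calls it where the fold is also at least 3. Of 15197 genes tested in NPs, 16.2% were lower and 17.8% were higher at adjusted p under 0.001, against 3 and 1 of the 6 genes. Called genes made up 9.98% (lower) and 12.4% (higher), against 2 of the 6 genes, Dnmt3b and Dnmt3l, both lower. The median log2 fold change of all genes was 0.03.

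**Figure D2:**
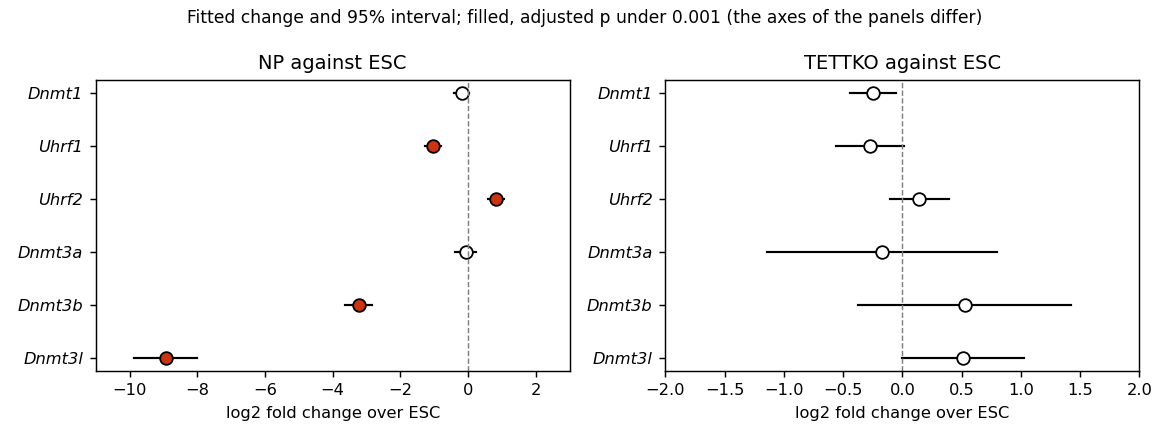
Fitted log2 fold change over ESC (x axes, which differ between panels) of each gene (y axis) in NP and in TETTKO, with the 95% interval as a line. Filled points have an adjusted p under 0.001: Dnmt3l at -8.93, Dnmt3b at -3.24, Uhrf1 at -1.04 and Uhrf2 at 0.82 in NPs, and no gene in TETTKO.

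The markers of each cell state were read as a check of the labels. All 9 naive pluripotency markers were lower in NPs, among them Zfp42 and Pou5f1, the gene of OCT4 (393 RPKM in ESCs and 1.09 in NPs). All 8 neural progenitor markers were higher, led by Neurog2 and Hes5. Of 6 neuron markers, 4 were higher and 1 lower. Of 9 mesoderm and endoderm markers, 6 were tested in NPs and 3 of these were also higher, including Foxa2 at 10.1 RPKM and Sox17 at 3.83. The part of these markers in the values of the 6 genes was not tested. The summed level of these 9 markers was 24.9 to 38.8 RPKM in NP libraries and 3.38 to 5.58 in ESC libraries.

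Relative to each other, the genes took a different order in NPs. Per length, the order in ESCs was Dnmt3l, Uhrf1, Dnmt1, Dnmt3b, Dnmt3a and Uhrf2, with means from 147 down to 9.04 RPKM and no overlap between neighbours. In NPs it was Dnmt1, Uhrf1, Uhrf2, Dnmt3a, Dnmt3b and Dnmt3l, where only the ranges of Uhrf2 and Dnmt3a overlapped. In TETTKO it was Dnmt3l, Uhrf1, Dnmt3b, Dnmt1, Dnmt3a and Uhrf2, and neighbours overlapped except between Dnmt3l and Uhrf1 and between Dnmt1 and Dnmt3a. The gene lengths of the count table join all exons and exceed the longest coding transcript by 1.18-fold for Dnmt3b to 2.43-fold for Uhrf2. With the transcript length instead, an alternative chosen after the data were seen, the ESC and NP orders stayed as given, Uhrf2 and Dnmt3a no longer overlapped in NPs, and in TETTKO Uhrf2 (26.3 RPKM) came just above Dnmt3a (25.3). Dnmt1 was higher than 95.5% of the 12385 genes with a mean of at least 1 RPKM in ESCs and higher than 95.3% of 12412 in NPs, while Dnmt3b went from 93.2% to 41.1%.

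Ratios within a library do not depend on its depth, and differences of their logarithms do not depend on gene length. The ratio of Dnmt3b to Dnmt3a RPKM was 3.79, 3.88 and 3.65 in ESCs and 0.273, 0.474 and 0.563 in NPs. Dnmt3b thus made up 78.5 to 79.5% of the summed RPKM of both enzymes in ESCs and 21.5 to 36.0% in NPs. The log2 ratio differed by -3.17 between NPs and ESCs (exact permutation p = 0.1, two-sided, the smallest that 3 against 3 libraries allow).

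The ratio of Uhrf1 to Dnmt1 was 1.41, 1.48 and 1.54 in ESCs and 0.820, 0.809 and 0.835 in NPs, a log2 difference of -0.84. The ratio of Uhrf2 to Uhrf1 was 0.0814, 0.0812 and 0.0789 in ESCs and 0.288, 0.288 and 0.298 in NPs, a log2 difference of 1.86. The ratio of Dnmt3l to Dnmt3a was 9.06 to 10.2 in ESCs and 0.0103 to 0.0404 in NPs, a log2 difference of -9.15. None of these ranges overlapped, and each of these 3 differences also had the smallest exact permutation p of 0.1. With 8 ratio tests in all, the Benjamini-Hochberg adjusted p was 0.133 for each of the 4 in NPs, so none could pass 0.05.

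**Figure D3:**
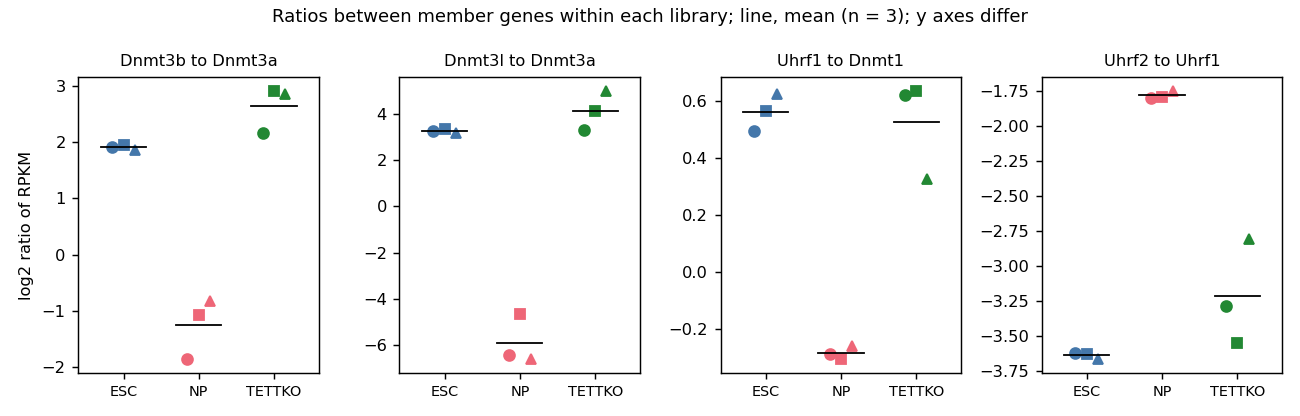
Log2 ratio of RPKM (y axes, which differ between panels) for 4 pairs of genes in each library, grouped on the x axis as ESC, NP and TETTKO. Symbols give the replicate number and lines the mean (n = 3). NP libraries lie apart from ESC libraries in all 4 panels, and TETTKO libraries lie above ESC for Dnmt3b to Dnmt3a.

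The comparison of TETTKO with ESCs sets the same genes beside the loss of TET proteins. Tet1 stood at 60.8 to 68.5 RPKM in ESCs and at 11.3 to 16.1 in TETTKO, and Tet2 at 16.1 to 20.5 and at 2.32 to 2.70. Both were lower (edgeR adjusted p = 7.02e-05 and 1.87e-05) but not absent, and the counts cover all exons, including any outside a deleted part. Tet3 was under 1 RPKM in ESCs and TETTKO alike and was not tested there. In NPs, Tet1 and Tet2 were also lower (log2 fold changes -3.98 and -2.54) and Tet3 was higher (3.43).

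None of the 6 genes had an adjusted p under 0.001 in TETTKO, by edgeR or by DESeq2, and at an unadjusted p under 0.05 edgeR gave 1, Dnmt1, where 45.1% of all genes had such a p. DESeq2 passed 20.5% of all genes. Of the 13939 genes tested, 1.69% were higher and 1.58% lower at adjusted p under 0.001, and 0.847% and 1.29% were called. The fitted log2 fold change of Dnmt1 was -0.25 ± 0.08 (SE, n = 3 per group), with a 95% interval from -0.45 to -0.05 and an edgeR adjusted p of 0.0546. Those of Uhrf1 and Uhrf2 were -0.27 ± 0.12 and 0.14 ± 0.11, with intervals from -0.56 to 0.01 and from -0.11 to 0.39. The value of Dnmt1 depended on the settings. It was -0.31 with library sizes alone (edgeR adjusted p = 0.0210) and -0.14 with no filter on low counts (edgeR adjusted p = 0.441).

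For the de novo group the intervals were wide. They ran from -1.14 to 0.80 for Dnmt3a, from -0.37 to 1.42 for Dnmt3b and from -0.0049 to 1.03 for Dnmt3l, around log2 fold changes of -0.17, 0.53 and 0.51. The coefficient of variation over the TETTKO libraries was 55.7% for Dnmt3a and 56.2% for Dnmt3b, against a median of 16.2% over 12307 genes, and 3.71% and 3.62% of genes varied as much. In ESCs the same coefficients were 6.69% and 9.53%. Replicate 3 held the lowest value of both genes. Without it the log2 fold changes were 0.23 for Dnmt3a, 0.89 for Dnmt3b and 0.68 for Dnmt3l (edgeR adjusted p = 0.0960, 0.00969 and 0.0339), still short of the threshold.

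TETTKO replicate 3 also stood apart in other genes. The markers also differed between TETTKO as a whole and ESCs. Of 9 naive markers, 1 was lower by edgeR, Zfp42, from 304 to 50.6 RPKM, 4 passed by DESeq2 and the median log2 fold change was -0.72. Of 5 primed markers, none passed by edgeR, 4 had an unadjusted p under 0.05, 4 passed by DESeq2 and the median was 1.37. These markers did not move in 1 direction. Fgf5, Pou3f1 and Sall2 were above every ESC library in each TETTKO library, and Zic2 lay on both sides of the ESC range. Otx2 was lower, at 1.49 to 7.19 RPKM in TETTKO against 11.4 to 14.3 in ESCs. The summed level of 5 primed pluripotency markers was 37.6 and 34.9 RPKM in replicates 1 and 2 and 18.6 in replicate 3, against 26.6 to 28.2 in ESCs. Among the primed markers, Fgf5 alone was not lowest in replicate 3 (1.28, 2.51 and 1.78 RPKM). The summed level of the 9 naive markers was 1087, 1096 and 1348, against 1731 to 1777 in ESCs. Pou5f1 alone of these was lowest in replicate 3, at 335, 343 and 209 RPKM. Each of the other naive markers was highest there, among them Nanog at 146, 210 and 373 RPKM. Prdm14, a repressor of de novo methyltransferase genes in naive cells, stood at 9.36, 7.79 and 15.1 RPKM, against a mean of 21.2 in ESCs. Dppa3, a factor that keeps UHRF1 off chromatin, stood at 59.2, 77.9 and 130 RPKM, against 6.32, 5.44 and 12.9 in ESCs. The Dppa3 libraries did not overlap, but the change missed the threshold (log2 fold change 3.31 ± 0.41, SE, n = 3 per group, edgeR adjusted p = 0.00132). The part of these genes and markers in the values of the 6 genes was not tested.

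Dnmt3a and Dnmt3b were low together in that library, and their ratio was not. The ratio of Dnmt3b to Dnmt3a was 4.50, 7.59 and 7.25 in TETTKO, above every ESC library, a log2 difference of 0.74 (exact permutation p = 0.1, adjusted p = 0.133). The ratio of Uhrf2 to Uhrf1 was 0.103, 0.0854 and 0.143, also above every ESC library, a log2 difference of 0.42 with the same exact permutation p. The ratio of Dnmt3l to Dnmt3a was 9.79, 17.0 and 31.8, with replicate 1 inside the ESC range (log2 difference 0.86, exact permutation p = 0.2). That of Uhrf1 to Dnmt1 was 1.54, 1.55 and 1.25 and overlapped ESCs (log2 difference -0.03, exact permutation p = 0.9).

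Genes that work with the 6 were followed as lists, whose NP counts stand beside 17.8% of all genes higher and 16.2% lower. Of 11 partners of maintenance, 2 (about the share of all genes) were higher and 4 lower in NPs, with a median log2 fold change of -0.49. The largest falls were those of Dppa3 (-4.59 ± 0.49, SE, edgeR adjusted p = 7.69e-05) and of Hells (-2.12 ± 0.23, SE, edgeR adjusted p = 7.30e-05), a chromatin remodeller needed for methylation of repeats. The rises were those of Setd7 (1.69 ± 0.14, SE, edgeR adjusted p = 1.68e-05), which methylates DNMT1 and other proteins, and of Pclaf (1.49 ± 0.14, SE, edgeR adjusted p = 4.32e-05), a PCNA-associated factor. In TETTKO, Setd7 was the only one of the 11 to pass by edgeR (3 passed by DESeq2, against 20.5% of all genes), at 8.42, 8.78 and 9.30 RPKM against 2.55, 2.26 and 2.62 in ESCs (log2 fold change 1.71 ± 0.11, SE, edgeR adjusted p = 9.90e-05), and the median of the list was 0.10.

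Of 13 regulators of de novo methylation and heterochromatin, 2 (about the share of all genes) were higher and 5 lower in NPs (median log2 fold change -0.09). Prdm14 fell the most (log2 fold change -8.82), with at most 5 counts in an NP library. Zfp57, which protects imprinted methylation together with TRIM28, followed (-3.77, from 161 to 11.9 RPKM). Nsd2 and Suv39h1, which methylate different lysines of histone H3, rose by 2.74 and 2.31 on the log2 scale. In TETTKO none of the 13 passed by edgeR, 7 had an unadjusted p under 0.05 and 3 passed by DESeq2, shares near the 45.1% and 20.5% of all genes, and the median was -0.01.

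UHRF1 and DNMT1 act at replicating DNA, so replication and proliferation genes were read beside them. Of 19 such genes, 5 were lower and 0 higher in NPs, beside 16.2% of all genes lower and 17.8% higher. The median log2 fold change was -0.39, with the largest falls in Ccne1 (-1.92, cyclin E1) and Pola1 (-1.05, a DNA polymerase alpha subunit). In TETTKO none passed by edgeR, 7 had an unadjusted p under 0.05 and 3 passed by DESeq2 (median 0.05), no more than the 45.1% and 20.5% of all genes. Uhrf1 at -1.04 lay near Pola1, and Dnmt1 at -0.20 was nearer 0 than the median. The part of proliferation in the fall of Uhrf1 was not tested. Of the 2 family relatives, Trdmt1, a tRNA methyltransferase, was tested in both comparisons and passed in neither (log2 fold changes -0.72 and 0.06), and Dnmt3c, a rodent paralogue of Dnmt3b, was below the limit with at most 28 counts in a library.

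**Figure D4:**
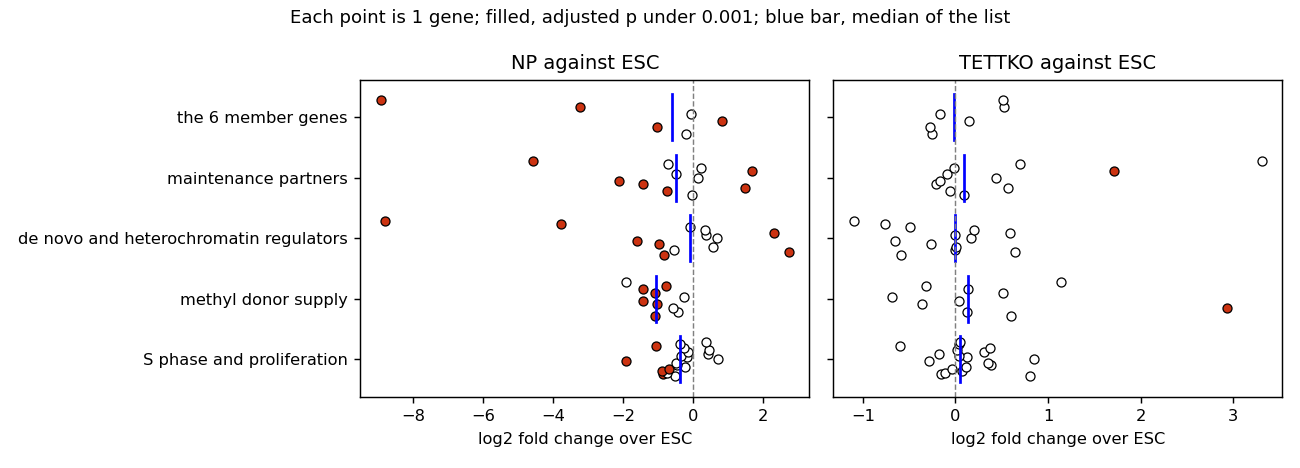
Log2 fold change over ESC (x axes, which differ between panels) of the 6 genes and of the tested genes of 4 lists (y axis) in NP and in TETTKO. Each point is 1 gene, filled at an adjusted p under 0.001, and the blue bar is the median of the list. Filled points are frequent in NP, and in TETTKO only Setd7 and Ahcy are filled.

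The genes whose pattern over the 9 libraries was most like each of the 6 were found by the root mean square difference of centred log2(RPKM + 1), among 15481 genes. For Uhrf1 they were Ubtf (0.048), a factor of ribosomal RNA transcription, Nup214 (0.082) and Nrde2 (0.084). For Uhrf2 they were Prkacb (0.037), Pgap3 (0.059) and Atg4b (0.063), and for Dnmt1 Zkscan5 (0.058), Mark2 (0.060) and Ttc13 (0.062). The measure is not scaled to each gene's own spread, and the de novo group varied more over the 9 libraries. It was larger for the matches of that group. Those of Dnmt3l were L1td1 (0.370), Tdgf1 (0.464) and Tdh (0.468), which are ESC-expressed genes at 296, 254 and 193 RPKM in ESCs and 1.09, 0.181 and 0.350 in NPs. Those of Dnmt3b were Nqo1 (0.330), Nefh (0.339) and Cth (0.360), and those of Dnmt3a were Cdk6 (0.228), Dab1 (0.254) and Sssca1 (0.260).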

How the data were processed

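Gene expression was measured by RNA-seq in 3 ESC, 3 NP and 3 TETTKO libraries, described by the study as biological replicates. The authors trimmed the reads, mapped them with STAR and made the deposited counts with featureCounts 1.6.2 per gene, over exons, on GRCm38 with Ensembl annotation 89. Per the file headers, strand was not used although the kit was stranded, and no option for reads that map to several places or genes was set. The methylation files of the series were not used here. Groups follow the labels.

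Counts were tested with edgeR 4.0.16 (quasi-likelihood F-test, TMM, 2 groups per fit, no covariate) over genes with at least 1 RPKM in at least 1 of the 6 libraries, with Benjamini-Hochberg adjustment over all genes tested. Ratios were tested by exact permutation. Standard errors are the log2 fold change over the root of F, and 95% intervals use the t distribution. RPKM used the lengths of the count tables. Simulated counts held 100 changed genes at each fold. At adjusted p under 0.001, the fit recovered 13% of 2-fold and 73% of 4-fold changes for NP (13341 genes). For TETTKO (13170 genes) it recovered 20% and 80%. Small changes can thus be missed at this depth and number of replicates. More genes passed in the data (5157 for NP and 456 for TETTKO) than in the simulation, which makes the adjusted threshold less strict in the data. These shares thus do not measure recovery in either comparison. Alternatives were other scalings, DESeq2 1.42.0, other filters, all groups in 1 fit, thinned TETTKO counts, the replicate number as a block and leaving out each library.

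The 6 genes and the lists were chosen with earlier results of these data known. Named genes are the 6, the Tet genes, up to 2 rises and 2 falls per list and comparison at adjusted p under 0.001, and the 3 most similar genes per member. Aire, Trdmt1 and Dnmt3c, and the TETTKO values of Prdm14 and Dppa3, were added after their values were seen. So were the TETTKO values of Pou5f1, Nanog and the primed markers. NP and TETTKO share their ESC controls and were not set against each other.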

Additional observations from a re-analysis of the deposited data

How the results depend on the processing

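For the 6 genes, calls in NPs were kept under the other scalings, DESeq2, filters and fits run, except that Uhrf2 missed the threshold without any 1 ESC library; Dnmt3l could not be tested with at least 10 counts in every library, since 1 NP library held 9. In TETTKO no alternative gave any of the 6 an adjusted p under 0.001. The sign of Dnmt3a changed in NPs with library sizes alone (log2 fold change 0.011) and without NP replicate 3 (range -0.22 to 0.014 without 1 library), and in TETTKO without replicate 3 (range -0.48 to 0.23). The log2 ratio of Uhrf1 to Dnmt1 in TETTKO also changed sign without replicate 3 (range -0.088 to 0.068). The causes were not tested. Leaving out 1 library gave 3 to 4 of the 6 genes in NPs and 0 in TETTKO.

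Counts over all genes depended more on the settings. Genes at adjusted p under 0.001 numbered 5157 in NPs (8012 with no filter, 2932 to 4668 without 1 library) and 456 in TETTKO (2860 with DESeq2, 2432 with no filter, 50 to 506 without 1 library). Called genes numbered 3396 in NPs (5281 with no filter, 2262 with at least 10 counts, 2471 to 3384 without 1 library) and 298 in TETTKO (910 with DESeq2, 1263 with no filter, 50 to 294 without 1 library). The NP count under adjusted p of 0.001 fell by over 1.5 times without ESC replicate 1, 2 or 3 (2932, 3147 and 3363), and both TETTKO counts without any 1 library other than TETTKO replicate 3. Same-numbered NP and ESC libraries correlated at -0.06, 0.01 and -0.12 and TETTKO and ESC libraries at -0.08, 0.31 and 0.21 in their deviations from group means, so the numbers are not taken to pair the samples. With the replicate block, 908 genes in TETTKO passed and 589 were called, and the counts of the 6 genes did not change. Depth limits Dnmt3l in NPs, at 9 to 41 counts.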

Other observations

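The supply of the methyl donor S-adenosylmethionine was read through 12 genes, of which 10 were tested. In NPs, 6 passed, all lower, with a median log2 fold change of -1.06, against 16.2% of all genes lower and a median of 0.03. The largest falls were those of Shmt1 (-1.44 ± 0.17, SE, edgeR adjusted p = 1.25e-04), a serine hydroxymethyltransferase of the folate cycle, from 74.3 to 27.6 RPKM, and of Mtrr (-1.44 ± 0.12, SE, edgeR adjusted p = 1.67e-05), which reactivates methionine synthase, from 14.9 to 5.53 RPKM.

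In TETTKO, Ahcy, which clears the S-adenosylhomocysteine left by methyltransferases, was the only one of the 10 to pass by edgeR (2 passed by DESeq2, about the 20.5% of all genes). It stood at 2.46, 2.55 and 1.70 RPKM in ESCs, a mean of 1.52 in NPs and 19.1, 21.3 and 15.0 in TETTKO (log2 fold change 2.93 ± 0.21, SE, edgeR adjusted p = 1.72e-04). Every TETTKO library was far above the other six. Ahcy has processed copies in the mouse genome, so its counts are uncertain, and the part of read mapping in this difference was not tested.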
